A study of Mus musculus with 12 samples.

Results

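Genes of the megakaryocyte and platelet programme were read with and without knockdown of G9a in MEL cells, a mouse line of erythroid leukemia. G9a, the product of Ehmt2, is an enzyme that methylates lysine 9 of histone H3. The 9 genes were taken as a fixed list: Itga2b, Itgb3, F2r, Pf4, Gp1bb, Gp9, Vwf, Fli1 and Runx1. They have 18 probe sets annotated to 1 gene each, of 45037 probe sets that are not controls, and no filter on level was applied. A further probe set, which names a listed gene together with a second gene, was left out. Total RNA from 3 wild type and 3 G9a knockdown samples was put on Affymetrix arrays, and each group is numbered 1 to 3. The labels give 1 protocol for both groups: DMSO at 2% for 4 days to drive erythroid maturation, and doxycycline at 5 µg/ml to induce the knockdown. They do not say whether wild type cells also received doxycycline, which construct made the knockdown, or whether replicates were grown as cultures of their own. Every p-value therefore speaks only of the spread among these arrays, which may be technical. Each array was deposited in 2 summaries, GCRMA (log2 values) and MAS5 (linear signal), so the 12 deposited columns are 6 arrays.

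Megakaryocytes, the bone marrow cells that shed platelets, arise from a progenitor shared with the erythroid lineage. The integrin αIIb (Itga2b) pairs with β3 (Itgb3) to form the platelet fibrinogen receptor. The glycoproteins Ibβ (Gp1bb) and IX (Gp9) belong to the receptor for von Willebrand factor (Vwf), and a thrombin receptor, PAR1, is encoded by F2r. Platelet factor 4 (Pf4) is a chemokine stored in α-granules. Fli1, an ETS family factor, and Runx1 are transcription factors that act on megakaryocyte genes, often beside GATA1.

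Of the 9 genes, 5 were read above background in these erythroid cells and 4 were not. Background was set as log2 4.39 in GCRMA, the 95th percentile of the mean levels of 39 probe sets for 21 genes restricted to unrelated tissues, such as liver, pancreas, muscle and testis. Those probe sets had a median of 2.80, near the array medians of 2.99 to 3.10. Itga2b, F2r, Pf4, Fli1 and Runx1 had 11 probe sets above that bound in all 6 arrays. Itgb3, Gp1bb, Gp9 and Vwf had 6 probe sets below it in all 6 arrays, as did 1 further Runx1 probe set.

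**Figure D1:**
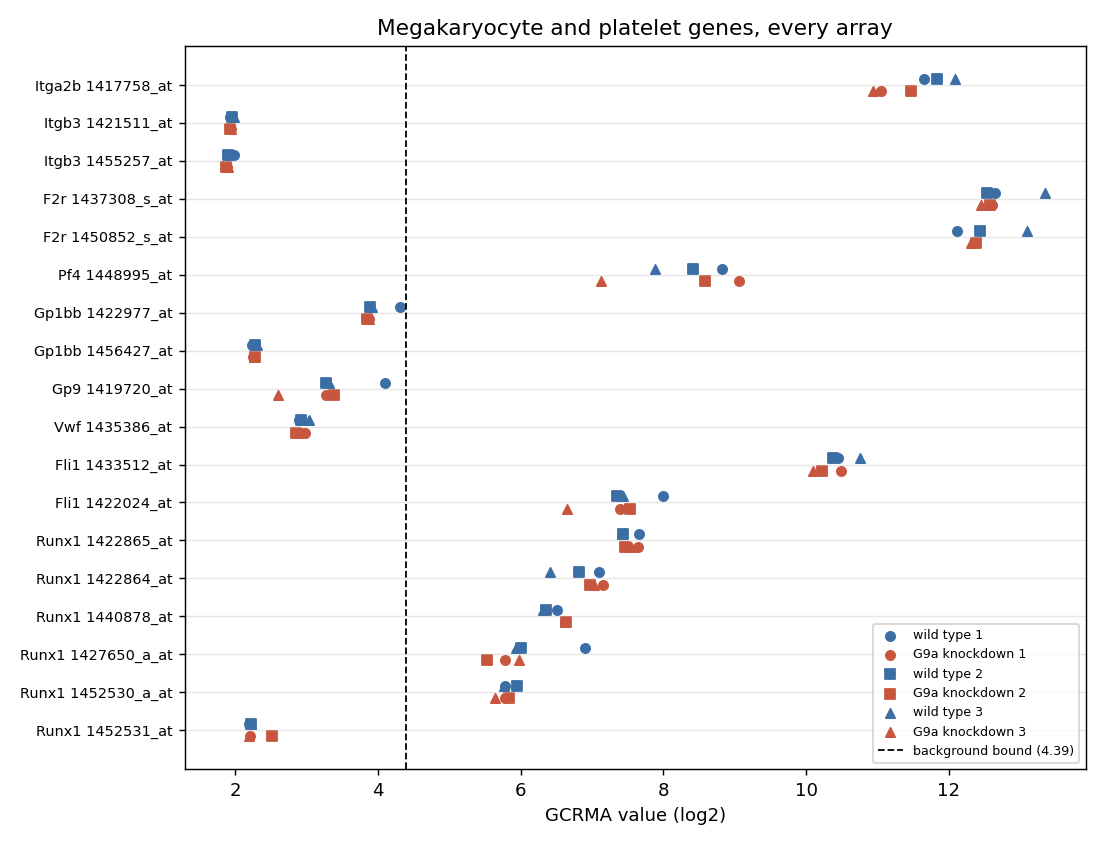
GCRMA value (log2, x axis) of each of the 18 probe sets (y axis) in every array, with wild type in blue, G9a knockdown in red and the marker shape giving the replicate number. The dashed line is the background bound of 4.39: 11 probe sets lie above it in all 6 arrays and 7 lie below it in all 6.

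Of the fibrinogen receptor genes, Itga2b was above the bound and Itgb3 was not. Itga2b lay between the 95.3rd and the 97.9th percentile of its array's probe sets. Itgb3 read 1.93 to 1.98 at 1421511_at and 1.87 to 1.99 at 1455257_at. The von Willebrand factor gene read 2.85 to 3.03. Gp1bb read 3.85 to 4.31 at 1422977_at and 2.24 to 2.31 at 1456427_at, and Gp9 read 2.60 to 4.11. A value depends on how well a probe set hybridizes, so each was read against the bound and not as a level of one gene over another. Other platelet genes were split too. Of 20 further receptor and adhesion genes 5 lay above the bound in all arrays (P2rx1, P2ry1, Itga6, Itgb1 and Cd151), and of 14 granule genes 3 did (Srgn, Tgfb1 and Slc2a3). Some of the others lay above the bound in part of the arrays. These were Pdgfb (up to 5.86 at 1450414_at), Gp5 (up to 5.44), Rab27b (up to 5.06 at 1417214_at) and Nbeal2 (up to 5.01 at 1455694_at). At the low end the highest value over the 6 arrays was 2.32 for Ppbp, 2.42 for Selp, 2.51 for Gp6, 2.39 for Clec1b and 2.43 for Treml1. F2rl3 and F2rl2, named for their likeness to F2r, reached only 2.28 and 2.69.

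The cells carried erythroid markers and few of other lineages. Of 9 annotated erythroid marker genes, 8 lay above background in all arrays, among them Klf1, Epor, Alas2 and Rhag. The exception was Hba-a1 at its only probe set named for that gene alone. No endothelial marker gene lay above background in all arrays (0 of 8), although Vwf, Fli1 and Itgb3 are also endothelial genes, and the counts were 0 of 8 for mast cell and basophil, 0 of 7 for lymphoid and 0 of 8 for fibroblast markers. Of 11 myeloid marker genes 1 did, Csf1r. Among those above the bound in part of the arrays were the myeloid gene Prtn3 (up to 6.30) and the fibroblast gene Pdgfrb (up to 6.02 at 1436970_a_at). The endothelial gene Eng reached 4.42 in wild type 3 at 1417271_a_at. In bulk RNA of this kind, fewer cells of a type and less RNA per cell cannot be told apart.

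Promoter sequence from RefSeq (GRCm38.p6) is shown for the receptor and granule genes read above background, Itga2b, F2r and Pf4, and for the glycoprotein genes read at background, Gp1bb and Gp9, so that both kinds can be compared. Each line gives the 250 bases before the annotated start, 5′ to 3′ on the gene's strand. Capitals mark matches, on either strand, to a GATA motif (AGATAA or AGATAG or TGATAA or TGATAG), an ETS motif (CGGAAG or AGGAAG) or a RUNX motif (TGTGGT or TGCGGT), and no matches overlapped. Itga2b lies at chr11:102469884-102470133, minus strand, F2r at chr13:95618467-95618716, minus strand and Pf4 at chr5:90772185-90772434, plus strand. Gp1bb lies at chr16:18622404-18622653, minus strand and Gp9 at chr6:87777820-87778069, plus strand.
Itga2b: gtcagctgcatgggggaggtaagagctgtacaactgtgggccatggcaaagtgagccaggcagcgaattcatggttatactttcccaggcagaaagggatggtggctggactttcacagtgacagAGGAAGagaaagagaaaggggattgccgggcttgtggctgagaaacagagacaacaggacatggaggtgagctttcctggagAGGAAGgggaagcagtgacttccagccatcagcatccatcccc
F2r: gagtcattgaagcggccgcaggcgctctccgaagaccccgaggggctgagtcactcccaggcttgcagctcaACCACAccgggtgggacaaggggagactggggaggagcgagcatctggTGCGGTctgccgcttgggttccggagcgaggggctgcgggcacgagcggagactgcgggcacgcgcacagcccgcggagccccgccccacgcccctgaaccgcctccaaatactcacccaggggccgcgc
Pf4: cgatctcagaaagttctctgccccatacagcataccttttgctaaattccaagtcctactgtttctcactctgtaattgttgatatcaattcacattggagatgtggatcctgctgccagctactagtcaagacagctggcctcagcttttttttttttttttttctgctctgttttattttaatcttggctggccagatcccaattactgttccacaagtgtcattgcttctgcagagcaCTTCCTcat
Gp1bb: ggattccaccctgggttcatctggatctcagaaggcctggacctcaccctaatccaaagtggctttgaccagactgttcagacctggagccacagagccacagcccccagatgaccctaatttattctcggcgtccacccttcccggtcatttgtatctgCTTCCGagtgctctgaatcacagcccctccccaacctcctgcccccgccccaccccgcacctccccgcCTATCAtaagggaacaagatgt
Gp9: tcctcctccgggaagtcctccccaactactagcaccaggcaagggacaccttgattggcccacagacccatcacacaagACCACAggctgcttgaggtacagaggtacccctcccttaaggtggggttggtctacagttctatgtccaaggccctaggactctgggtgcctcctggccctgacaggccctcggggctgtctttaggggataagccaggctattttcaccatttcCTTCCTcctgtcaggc

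Entries were found for 6 of the 9 genes, 7 in all because Runx1 has 2. The ETS motif was found in 5 of the 7, against 39.2% of all 32851 listed promoters. Itga2b holds it at positions -125 and -43 from the start, and Pf4 and Gp9 hold it on the other strand with first bases at -9 and -16. The GATA motif was found in 1 of 7, that of Gp1bb at -22, against 26.5% of all. The RUNX motif was found in 2 of 7, F2r and Gp9, against 18.6%. These matches describe letters in a short window and do not separate the genes read above background from those read at it: Itga2b, Pf4, Gp1bb and Gp9 each hold an ETS motif.

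Knockdown arrays were compared with wild type arrays of the same number, that is, in limma with the replicate number as a block, over all 45037 probe sets (Benjamini-Hochberg adjustment, threshold 0.05). Ehmt2, the targeted gene, did not overlap between groups: at 1460692_at its log2 mean was 7.19 in the knockdown against 10.06 (limma adjusted p = 5.01e-08, and 0.125 without the block). At its other probe set, 1426888_at, the mean went from 7.11 to 4.24 (limma adjusted p = 5.01e-08, and 0.0197 without the block). Among the 18 probe sets of the megakaryocyte genes, 1 was called lower and 0 higher, that of Itga2b. Over all probe sets, 0.664% were called lower and 0.471% higher. Without the block, limma called 0 of the 18 and 0.00222% of all probe sets lower, and at an unadjusted p under 0.05 it found 2 of the 18 lower, against 1.6% of all. For higher probe sets these counts were 0 of 18 and 0.0% of all, and 0 of 18 against 1.16%. In MAS5 limma called 0 of the 18 lower or higher, against 0.04% and 0.00888% of all, and at an unadjusted p under 0.05 it found 1 lower and 0 higher, against 3.62% and 4.36%. When only probe sets above log2 4 in at least 3 arrays were tested, limma called 0 of 11, against 0.0411% lower and 0.00587% higher.

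Itga2b, the integrin αIIb gene, was the only one of the 9 genes whose groups did not overlap in both summaries. Its GCRMA values at 1417758_at were 11.65, 11.84 and 12.08 in wild type 1 to 3 and 11.05, 11.47 and 10.93 in the knockdown. Every knockdown array was below every wild type array, and the differences within pairs were -0.60, -0.37 and -1.15. The mean went from 11.86 ± 0.22 (SD, n = 3) to 11.15 ± 0.28 (SD, n = 3), a difference of -0.71 (95% interval -0.97 to -0.45) or 1.63-fold lower. It passed the threshold in the paired limma fit (adjusted p = 0.00822). The two-sided exact permutation test over arrays gave p = 0.10, the smallest possible with 3 against 3.

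In MAS5 the Itga2b signal was 11041, 13026 and 17717 in wild type and 9215, 10499 and 7580 in the knockdown. The groups again did not overlap. In MAS5 this was so, with the knockdown lower, for 1 of the 18 probe sets and 4.88% of all. In GCRMA it was so for 3 of the 18, those of Itga2b, Itgb3 (1455257_at) and Gp1bb (1422977_at), and 4.3% of all. Among probe sets with a mean above log2 4 it was so for 1 of 11, that of Itga2b, in each summary, against 7.34% of that class in GCRMA and 6.07% in MAS5. The MAS5 difference on the log2(value + 1) scale was -0.60 (95% interval -0.95 to -0.25, limma adjusted p = 0.359). Both summaries share the arrays, so the MAS5 value is a check and not a further replicate.

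The Itga2b difference kept its sign across processing settings, and its call did not hold in most of them. In 19 alternatives the difference stayed negative, from -0.87 to -0.49, and passed the threshold in 3. Several alternatives share a change: every fit with a single array left out was also run without the block. In those fits the array and the model changed together. The limma adjusted p was 0.729 without the block, 0.376 without an intensity trend in the variance prior, 0.144 when only probe sets above log2 4 in at least 3 arrays were tested, and 0.705 after quantile normalization. It was 0.0763 when only probe sets above log2 6 in at least 3 arrays were tested. Leaving out both replicate 1 arrays also ended the call (limma adjusted p = 0.146, difference -0.76). Each paired test on all 6 arrays had 2 residual degrees of freedom of its own. The variance prior added 13.6 over all probe sets and 4.38 over those above log2 4. A paired fit with a replicate number left out had fewer of its own. Over all probe sets such fits called 0 without replicate 1, 952 without replicate 2 and 1931 without replicate 3, against 511 in the main fit.

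**Figure D2:**
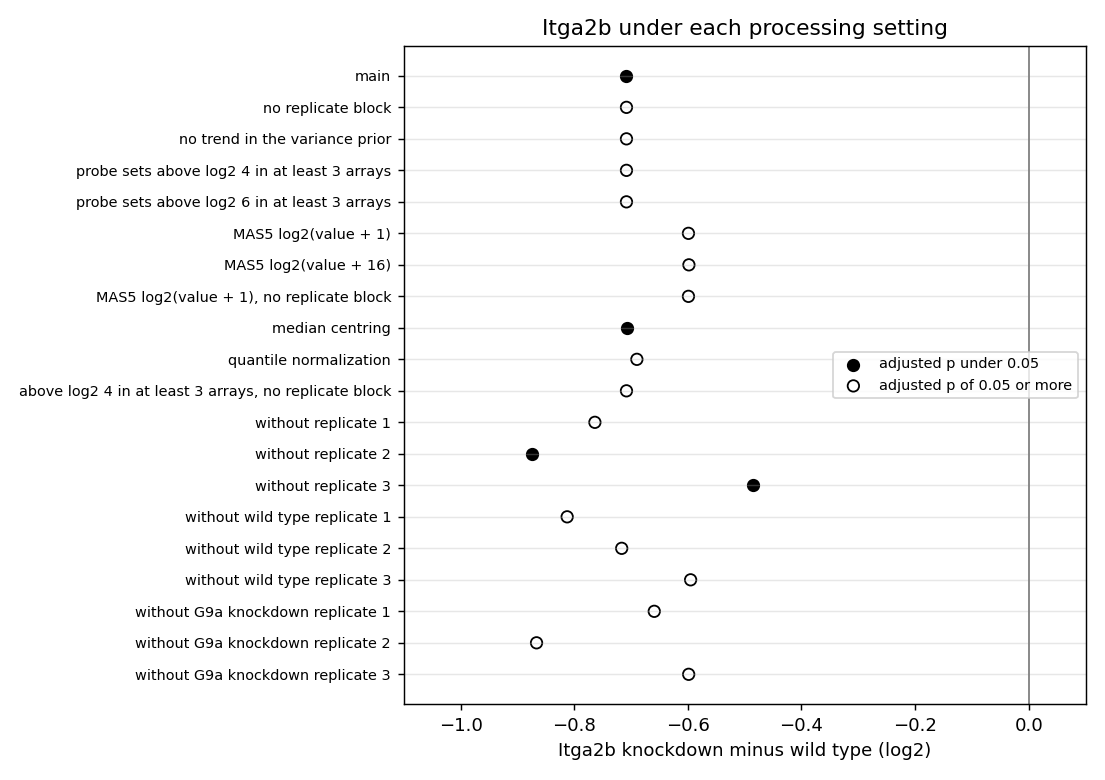
Itga2b difference at 1417758_at (knockdown minus wild type, log2, x axis) in the fit described above ("main") and under each alternative (y axis), where filled circles mark an adjusted p under 0.05. All values lie between -0.87 and -0.49, and 3 of the 19 alternatives are filled.

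Its receptor partner gave no reading of change. Itgb3 differed by -0.017 at 1421511_at and -0.056 at 1455257_at, both at background, and in MAS5 by 0.14 and 0.94 with the opposite sign. At 1455257_at every knockdown array was below every wild type array in GCRMA, within the narrow span of 1.87 to 1.99 and under the background median of 2.80.

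F2r, a thrombin receptor gene, was bright at both of its probe sets, and its difference rested on 1 pair. At 1437308_s_at it read 12.65, 12.54 and 13.34 in wild type and 12.61, 12.57 and 12.45 in the knockdown. Wild type 3 stood above the other 5 arrays, which lay within 12.45 to 12.65. The differences within pairs were -0.035, 0.030 and -0.89, and their mean was -0.30 (95% interval -0.57 to -0.028, limma adjusted p = 0.420). Without the replicate 3 arrays the difference was -0.0025 (limma adjusted p = 1.00), and without the replicate 2 arrays it was -0.46 (limma adjusted p = 3.20e-04). It also passed after median centring (0.0225).

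The second F2r probe set, 1450852_s_at, gave the same picture. It read 12.12, 12.43 and 13.09 in wild type and 12.35, 12.38 and 12.31 in the knockdown, with a difference of -0.20 (-0.48 to 0.077) that was 0.091 without replicate 3. Wild type 3 was the highest array in MAS5 too, at 21151 against 12185 to 12760 in the other 5 at 1437308_s_at.

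Pf4, the α-granule chemokine gene, varied more between replicate numbers than between groups. It read 8.83, 8.42 and 7.88 in wild type and 9.06, 8.58 and 7.13 in the knockdown. In both groups replicate 1 was highest and replicate 3 lowest, and the groups overlapped. The differences within pairs were 0.23, 0.16 and -0.75, with a mean of -0.12 (95% interval -0.49 to 0.25, limma adjusted p = 0.765). In MAS5 the signal ranged from 797 in knockdown 3 to 2236 in knockdown 1, and the difference was -0.043 (-0.38 to 0.30). The GCRMA difference was 0.20 without the replicate 3 arrays.

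**Figure D3:**
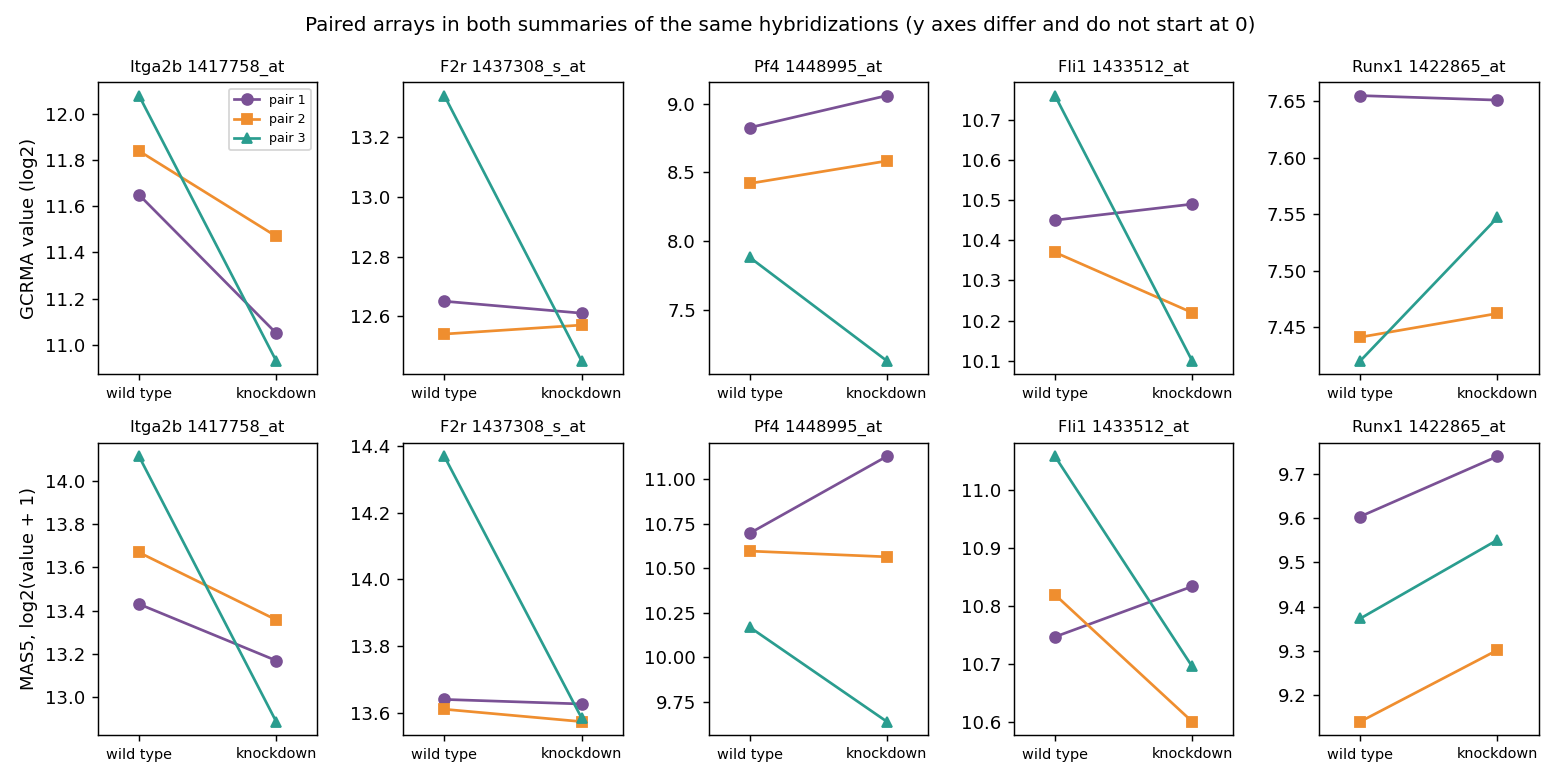
Wild type and knockdown values of each numbered pair, joined by a line, for 1 probe set of each of the 5 genes read above background, in GCRMA (top, log2) and MAS5 (bottom, log2(value + 1)). Itga2b slopes down in all 3 pairs in both summaries, while F2r slopes down mainly in pair 3 and Pf4 keeps the order of the pairs in both groups.

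The ETS factor gene Fli1 was lower on average at both probe sets, and neither passed. At 1433512_at it read 10.45, 10.37 and 10.76 in wild type and 10.49, 10.22 and 10.10 in the knockdown, with a mean difference of -0.26 (95% interval -0.53 to 0.017, limma adjusted p = 0.572). At the dimmer 1422024_at the values were 7.99, 7.36 and 7.43 against 7.39, 7.54 and 6.65, a difference of -0.40 (-0.77 to -0.031, limma adjusted p = 0.438). The groups overlapped at both. Pair 3 had the lowest difference at each, -0.66 and -0.78, and knockdown 3 was the lowest array at each. Without the replicate 3 arrays the differences were -0.058 and -0.21. Without the replicate 2 arrays 1422024_at passed (-0.69, limma adjusted p = 0.0474).

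Runx1, read by 6 probe sets, had differences of both signs, and none passed in the paired fit. At 1427650_a_at Runx1 read 6.90, 6.01 and 5.93 in wild type and 5.78, 5.53 and 5.98 in the knockdown, with a mean difference of -0.52 (95% interval -0.90 to -0.13, limma adjusted p = 0.258). That difference passed without the replicate 3 arrays (-0.80, limma adjusted p = 4.38e-04) and after median centring (0.0317), and was -0.22 without the replicate 1 arrays. At 1422864_at it read 7.10, 6.82 and 6.41 against 7.16, 6.97 and 7.02, a difference of 0.27 (-0.052 to 0.60, limma adjusted p = 0.685). At 1440878_at every knockdown array (6.62 to 6.64) was above every wild type array (6.31 to 6.52), with a difference of 0.23 (-0.066 to 0.53, limma adjusted p = 0.753). It was the only one of the 18 whose groups did not overlap with the knockdown higher, which held for 1.99% of all probe sets and 5.06% of those with a mean above log2 4. In MAS5 the groups at 1440878_at overlapped, with a difference of 0.11, and the one probe set of the 18 in that class was Runx1 1452531_at, against 5.93% of all. That probe set was below the bound in GCRMA, and in MAS5 its signal of 140 to 175 was above the MAS5 bound of log2 6.73.

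The remaining Runx1 probe sets differed little. At 1422865_at, read at 7.42 to 7.65, the difference was 0.048, and at 1452530_a_at, read at 5.64 to 5.95, it was -0.083. The probe set at background in GCRMA, 1452531_at, differed by 0.095. The gap between 1427650_a_at and 1422864_at was -0.204, -0.815 and -0.478 in wild type and -1.38, -1.44 and -1.05 in the knockdown. These probe sets were chosen after their values were seen. Of the Runx1 probe sets above the bound they had the lowest and the highest difference. The mean change of the gap in GCRMA, -0.789, was therefore built into the choice. In MAS5 it was -0.465, with -1.05, -0.248 and -0.101 in pairs 1 to 3. The gap is given with no test. Which transcripts each probe set reads is not given in the files.

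The glycoprotein genes and Vwf gave differences at GCRMA levels where no RNA could be told from background. Gp9 read 4.11, 3.28 and 3.32 in wild type and 3.27, 3.39 and 2.60 in the knockdown, with a mean difference of -0.48 (95% interval -0.76 to -0.21, limma adjusted p = 0.101). Wild type 1 was highest and knockdown 3 lowest, and the other 4 arrays lay within 3.27 to 3.39. In MAS5 Gp9 lay above the MAS5 bound of log2 6.73 in wild type 1 and 3 and knockdown 2 (146, 130 and 127). Its MAS5 difference was -1.30 (95% interval -2.82 to 0.21, limma adjusted p = 0.692). Gp1bb 1456427_at lay above that bound in wild type 2 and 3 (144 and 121). Gp1bb differed by -0.17 at 1422977_at, where wild type 1 read 4.31 and the other 5 arrays 3.85 to 3.92, and by -0.0090 at 1456427_at. Vwf differed by -0.030. Gp9 passed without the replicate 2 arrays (-0.78, limma adjusted p = 7.96e-06) and after median centring (0.0131). No fold is given for Itgb3, Gp1bb, Gp9 or Vwf, since both groups lay at background in GCRMA.

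**Figure D4:**
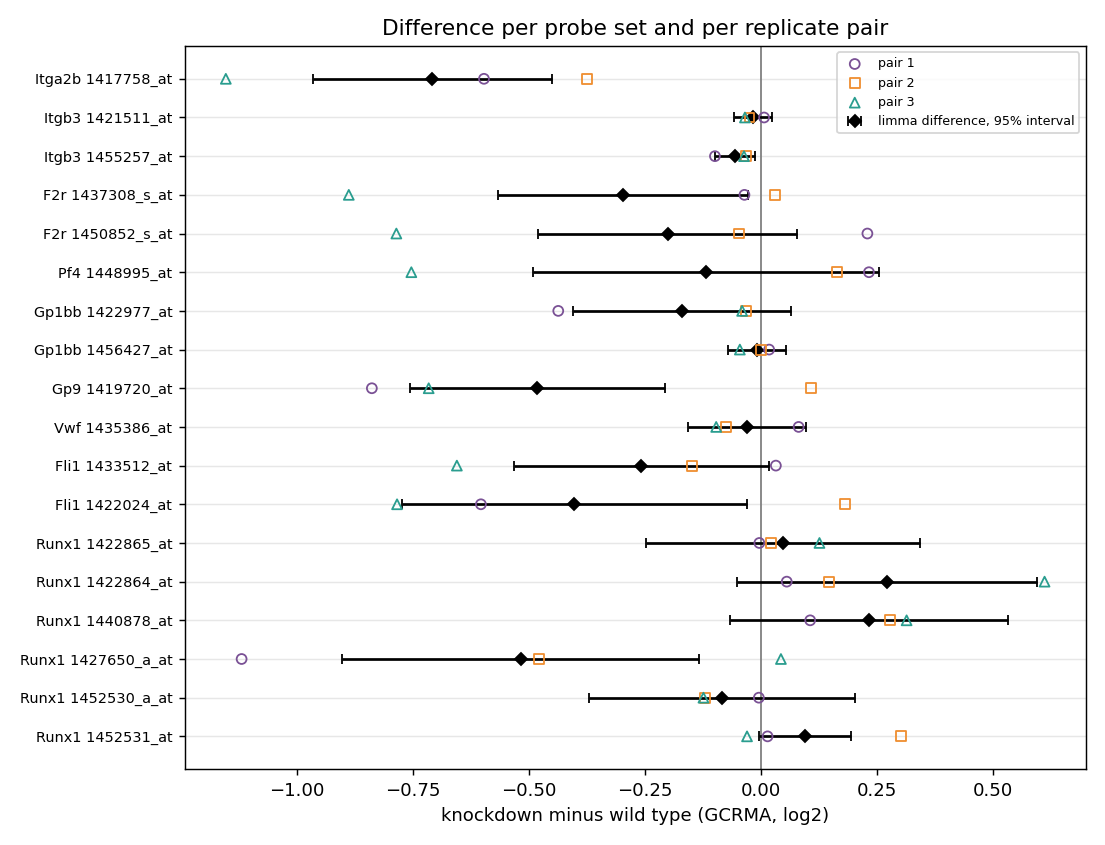
Difference between knockdown and wild type (GCRMA, log2, x axis) at each probe set (y axis): the black diamond is the paired limma estimate with its 95% interval, and the open markers are the 3 numbered pairs. Itga2b has all 3 pairs at or below -0.37, and Itga2b, F2r, Pf4 and Fli1 have their lowest value in pair 3.

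Across the 18 probe sets 14 had a negative difference, against 74.4% of all probe sets, so this share is near the background. Their median was -0.10, against -0.025 over all. Of the 11 member probe sets with a mean above log2 4, 8 were negative with a median of -0.20, against 51.7% and -0.0084 over the 17029 probe sets above that mean. All 3 pairs were lower at 2 of these 11, Itga2b and Runx1 1452530_a_at, and at 20.6% of the 17029. They were higher at 2 of the 11, Runx1 1422864_at and 1440878_at, and at 17.3%. At an unadjusted limma p under 0.05, 6 of the 18 were lower and 0 higher, against 5.49% and 4.27% of all. The 6 included Gp9 and Itgb3 1455257_at, both below the bound in GCRMA. Without the block 2 of the 18 were lower, against 1.6% of all, and in MAS5 1 was, against 3.62%. Probe sets of 1 gene share their transcripts, so these counts are not of independent genes.

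Pair 3 stood apart in several of these genes. It gave the lowest of the 3 differences for Itga2b, both F2r probe sets, Pf4 and both Fli1 probe sets. Without the replicate 3 arrays the Itga2b difference was -0.49 and passed (limma adjusted p = 0.0012).

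Other genes of megakaryocytes and platelets were read in 5 lists by role. Over all probe sets the paired limma fit called 0.664% lower and 0.471% higher. At an unadjusted p under 0.05 it found 5.49% lower and 4.27% higher. Of 38 receptor and adhesion probe sets limma called 0 (1 lower at an unadjusted p under 0.05), with the laminin receptor gene Itga6 at -0.41, the ADP receptor gene P2ry1 at -0.32, the glycoprotein gene Gp5 at 0.29 and the tetraspanin gene Cd151 at 0.16. Gp5 was not above the bound in every array, and that Cd151 probe set read 3.05 to 3.43, at background, while the 4 bright Cd151 probe sets differed by -0.064 to 0.083. Of 32 granule probe sets 1 was called higher (4 higher and 1 lower at an unadjusted p under 0.05). It was for the glucose transporter gene Slc2a3 at 1421924_at, with 0.67 (limma adjusted p = 0.0431, 0.729 without the block and 0.189 among probe sets above log2 4). The higher ones were all of Slc2a3, whose other probe sets gave 0.48, 0.45 and 0.33. The other granule genes with the lowest p were Tgfb1 at -0.24, Thbs1 at -0.041 and Clu at -0.040, the latter pair at background. Of 31 cytoskeleton and adhesion adaptor probe sets limma called 0 (also 0 at an unadjusted p under 0.05). Fermt3 gave -0.15, -0.12, -0.14 and 0.27, the last at 1443641_at (-0.060 in MAS5). Was gave -0.24, and Myh9 gave -0.25, 0.17 and 0.16 at 3 of its probe sets. Pdlim1 gave 0.094 at a probe set at background, where knockdown 2 alone was high (2.49).

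Of 33 signalling probe sets limma called 0 (3 higher and 2 lower at an unadjusted p under 0.05), with the Rap1 activator gene Rasgrp2 at 0.39 and 0.33 (in MAS5 -0.12 and -0.011), Plcg2 at 0.32, Prkcq at -0.34 and Rap1b at -0.15. Of 30 transcription factor probe sets 1 was called higher (4 higher and 4 lower at an unadjusted p under 0.05). It was that of Lmo2, a partner of GATA1 and TAL1. Lmo2 read 9.31 ± 0.31 and 9.94 ± 0.31 (SD, n = 3 each), a difference of 0.63 (limma adjusted p = 0.0165, 0.729 without the block and 0.0947 among probe sets above log2 4). Srf differed by 0.54 at 1418255_s_at and -0.22 at its dimmer probe set, Gata2 by -0.42 and Nfe2, a factor of platelet release, by -0.30. Medians over the probe sets with a mean above log2 4 were -0.012 for receptors, 0.063 for granule, -0.099 for cytoskeleton, -0.081 for signalling and 0.079 for transcription factor genes, beside -0.0084 over all probe sets above that mean.

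Some markers of other states also differed between the groups. Of 13 erythroid probe sets 2 were called higher in the paired limma fit, Ermap with 0.74 (adjusted p = 3.78e-04) and Klf1 with 0.40 (adjusted p = 0.0133), and 0 lower. Neither passed without the block (limma adjusted p = 0.729 for each) or among probe sets above log2 4 (0.0689 and 0.126). At an unadjusted limma p under 0.05 the list had 4 higher and 4 lower probe sets of 13, against 4.27% and 5.49% of all. The lower ones were Tfrc 1452661_at (-0.23, adjusted p = 0.0510, groups not overlapping) and 1422966_a_at (-0.19), Slc4a1 1434502_x_at (-0.45) and Tspo2 (-0.33). Of its 11 probe sets with a mean above log2 4, 6 were negative, with a median of -0.163. The summed linear GCRMA level of the erythroid list was 56600 to 63300 in wild type and 58800 to 65100 in the knockdown, so the groups overlapped. Such a sum is weighted to the brightest probe sets, here Tfrc 1452661_at (log2 14.28 to 14.62), which was lower in the knockdown. Of 13 myeloid probe sets 1 was called higher, Prtn3 with 1.19 (limma adjusted p = 0.00494, and 0.729 without the block). Prtn3 lay below the bound in wild type 2 and 3 (4.353 and 3.965). The sum of the myeloid list was 205 to 346 in wild type and 278 to 346 in the knockdown. Endothelial sums were 62.9 to 67.3 and 62.8 to 64.1, mast cell sums 57.9 to 60.2 and 56.7 to 59.2, lymphoid sums 85.6 to 93.4 and 85.5 to 87.1, and fibroblast sums 120 to 139 and 127 to 165. The part of these shifts in the Itga2b difference was not tested.

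Patterns most like those of the 5 genes read above background were sought by Pearson's r over the 6 arrays, as a description. For Itga2b these were Fut8 (r = 0.999), Virma (r = 0.988) and Rab4b (r = 0.988), of 15580 probe sets compared. In MAS5 the same correlations were 0.972, 0.091 and 0.967, so that of Virma was high in GCRMA alone. For F2r they were 9530057J20Rik (0.986), Zbtb4 (0.984) and Otud3 (0.983), with 0.903, 0.598 and 0.565 in MAS5. For Pf4 they were Socs3 (0.994), Ssbp4 (0.986) and Cdc42bpa (0.985), with -0.413, 0.979 and 0.885 in MAS5. For Fli1 they were Angptl6 (0.994), Dus1l (0.989) and Ugp2 (0.988), with 0.259, 0.867 and 0.173 in MAS5. For Runx1 at 1422865_at they were Galnt10 (0.994), Sf3a3 (0.991) and Trim13 (0.988), with 0.888, 0.764 and 0.374 in MAS5. With 6 arrays, 20 to 111 probe sets reached r above 0.95 with each gene.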

How the data were processed

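The authors deposited, per the labels, a MAS5 and a GCRMA summary of each of 6 Affymetrix hybridizations. MAS5 values were deposited as linear intensity, with a 2% trimmed mean of 500.0 in each array, and the deposited GCRMA columns hold log2 values. For software versions and settings: not given in the sources used here. Of 45101 probe sets, 64 controls were left out. Gene names came from the platform annotation.

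The paired comparison used limma 3.58.1 in R 4.3.3 on GCRMA values (group plus replicate number, intensity trend in the variance prior, no filter, Benjamini-Hochberg threshold 0.05). MAS5 values were tested as log2(value + 1). The pipeline was tested on simulated data. Same-numbered wild type and knockdown arrays deviated together (r = 0.651, 0.516 and 0.33 after removing group means), and differently numbered ones less (-0.546 to 0.136). Deviations from a mean of 3 arrays sum to 0, so lower values for unlike numbers are in part built in. Between numbers 2 and 3 the unlike pairs gave 0.108 and 0.136. These values therefore cannot settle whether the numbers mark true pairs, and no label gives the meaning of a number. Depth does not apply to arrays, and their number limits precision.

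The 9 genes, the gene lists and the tests were chosen with earlier results of these data known. Named beside the 9 genes were the 4 genes per list with the lowest p, any called, and the 3 probe sets most like each gene. RefSeq's GRCm38.p6 tables gave the promoters. The files name no genome build.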

Additional observations from a re-analysis of the deposited data

How the results depend on the processing

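The Itga2b difference stayed at -0.71 (GCRMA) without the block (adjusted p = 0.729), without the trend (0.376), above log2 4 or 6 (0.144 and 0.0763) and above log2 4 without the block (0.625). It was -0.60 in all MAS5 settings (pseudocount 1 or 16, and without the replicate block: limma adjusted p = 0.359, 0.454 and 0.894) and -0.69 after quantile normalization (0.705). With arrays left out it ranged from -0.87 to -0.49, where single arrays were left out without the block and replicate numbers with it. The count called among the 18 probe sets was 0 in those settings and 4 after median centring. With arrays left out it ranged from 0 to 4, where replicate 2 gave 4 and replicate 3 gave 2. The count over all probe sets, 511, was 1 without the replicate block, 0 without the trend (3883 at an unadjusted limma p under 0.05), 8 above log2 4, 71 above log2 6, 22 and 11 in MAS5 with pseudocounts 1 and 16, 1 in MAS5 without the block, 1429 after median centring, 0 after quantile normalization (2924 at an unadjusted limma p under 0.05) and 1 above log2 4 without the block. With arrays left out it ranged from 0 to 1931. The cause was not tested.

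Some differences changed sign. In MAS5 with pseudocounts 1 and 16, and the same with 1 and no block, Itgb3 gave 0.14 and 0.074 at 1421511_at and 0.94 and 0.37 at 1455257_at, Gp1bb 1456427_at gave 0.29 and 0.20, and Runx1 1452530_a_at gave 0.056 and 0.055. After quantile normalization Itgb3 1421511_at gave 5.072e-06, Gp1bb 1456427_at 0.014 and Vwf 0.0023. With arrays left out, the range crossed 0 for F2r 1450852_s_at (-0.42 to 0.091), Pf4 (-0.52 to 0.45), Gp1bb 1456427_at (-0.026 to 0.0092), Vwf (-0.086 to 0.0088), Runx1 1422865_at (-0.00093 to 0.12) and Runx1 1452531_at (-0.012 to 0.16).

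F2r 1437308_s_at, Gp9 and Runx1 1427650_a_at passed after median centring (limma adjusted p = 0.0225, 0.0131 and 0.0317), a shift of the median difference of 0.00092. Array weights could not be fitted. Levels at background limit what Itgb3, Gp1bb, Gp9 and Vwf can show, and 3 arrays a group limit every test. The alternatives with array weights and with the filter but no block were chosen after seeing the data.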
